A study of Macaca mulatta with 24 samples.

Results

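ALDH1L2 is the mitochondrial enzyme that oxidises 10-formyltetrahydrofolate to tetrahydrofolate and carbon dioxide with formation of NADPH, a step of the one-carbon pathway inside mitochondria. A list of 10 genes was set around it: 5 more genes of serine synthesis and mitochondrial one-carbon metabolism (PHGDH, PSAT1, PSPH, SHMT2 and MTHFD2), the asparagine synthetase gene ASNS, and 3 stress genes under the transcription factor ATF4 (TRIB3, CHAC1 and DDIT3). Every probe of the ileum arrays that the deposited normalized table names with 1 of these symbols was taken. A probe was found for 7 of the 10 genes, with 9 probes in all out of 43603 that are not controls. MTHFD2, SHMT2 and PSPH had no probe under these symbols and are not described further. The list was chosen with results of these same arrays known. Which values chose it is not recorded, and it is taken here as selected on the day 4 signal of ALDH1L2, the gene that heads it, with the other genes added for their function. The levels and changes of ALDH1L2 are therefore given as a description, with no test, and the counts of altered genes are over the other 6.

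Cells that lack amino acids, or whose endoplasmic reticulum or mitochondria are under strain, phosphorylate the initiation factor eIF2alpha, and translation of ATF4 then rises. ATF4 induces the serine synthesis enzymes, ASNS, aminoacyl-tRNA synthetases and amino acid carriers, and also DDIT3, TRIB3 and CHAC1, which take part in the shutdown or death of stressed cells. Serine gives its carbon to folate through the SHMT enzymes, and the folate units are used to build thymidylate and purines, for which the dividing cells of the intestinal crypt have a steady need.

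The arrays held ileum of young-adult male rhesus macaques that had received a single whole dose of cobalt-60 gamma rays by total-body irradiation (TBI), 6.7 Gy or 7.4 Gy, and of sham-irradiated animals. On day 4 and on day 7, 4 animals per dose were sampled and 2 per dose on day 12; 4 unirradiated animals, labelled day 4, served as the controls for every day. Each array held RNA of the whole gut wall of 1 animal, without selection of a cell type. Signals are given on a log2 scale on which 0 is the 75th percentile of the array, so that a difference of 1 is a 2-fold change. A gene was called altered when limma's adjusted p was below 0.05 and the change was at least 2-fold. All 9 probes were bright enough to be tested, among 36108 tested probes, and 6 of them were above background on all 24 arrays. Of the markers that identify ileal epithelium, 5 of 6 enterocyte and 4 of 4 goblet cell genes were above background on all 24 arrays. The array of replicate 4 on day 4 after 6.7 Gy stood apart: its summed neutrophil marker level was 6.96 against 0.417 to 0.914 on the other 23 arrays, its summed enterocyte level of 150 (6 markers) and goblet cell level of 134 (4 markers) were the lowest of the 24, and its proliferation marker level of 35.1 was the highest. The changes of the 7 genes on day 4 after 6.7 Gy are given with and without this array, and those of other genes where its removal ended a call.

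ALDH1L2 was lower on day 4 after both doses than in unirradiated ileum, and on day 7 it was back at the control level. Its log2 signal (probe A_01_P1733776) was 0.25, -0.58, 0.12 and -0.79 in the 4 controls. On day 4 it was -1.35, -1.78, -1.38 and -3.30 after 6.7 Gy and -2.59, -1.39, -1.73 and -2.01 after 7.4 Gy. All 8 irradiated arrays of day 4 were below all 4 controls, and they were the 8 lowest of the 24 arrays. The mean was -0.25 ± 0.51 (SD, n = 4) in the controls against -1.95 ± 0.92 (SD, n = 4) and -1.93 ± 0.51 (SD, n = 4), that is 3.25-fold lower after 6.7 Gy (log2 change -1.70, SE 0.36, 95% interval -2.46 to -0.94) and 3.20-fold lower after 7.4 Gy (log2 change -1.68, SE 0.36, 95% interval -2.44 to -0.92). Since the gene is taken as chosen on these same values, the intervals do not allow for that choice and are no test. Without replicate 4 of the 6.7-Gy group the log2 change was -1.25 (SE 0.30, 2.38-fold). In bulk tissue, fewer cells of a type and less RNA per cell cannot be told apart.

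On day 7, ALDH1L2 was at -0.07, -0.40, 0.01 and -0.57 after 6.7 Gy and at -0.40, -0.39, -0.13 and -0.73 after 7.4 Gy. Both sets lay inside the range of the controls, and the log2 changes from the controls were -0.01 (SE 0.36) and -0.16 (SE 0.36). From day 4 to day 7 the signal was higher by 1.70 (SE 0.36) after 6.7 Gy and by 1.52 (SE 0.36) after 7.4 Gy, with all 4 arrays of day 7 above all 4 of day 4 at each dose. The former difference was 1.25 (SE 0.30) without replicate 4 of day 4. On day 12 the 2 animals of the 6.7-Gy group were at -0.20 and -1.29 and the 2 of the 7.4-Gy group at -0.18 and -0.44. In the order of the group means, both day 4 groups were lowest and did not differ beyond their spread, and no neighbours among the other 5 groups (means from -0.75 to -0.25) differed beyond their spread.

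**Figure D1:**
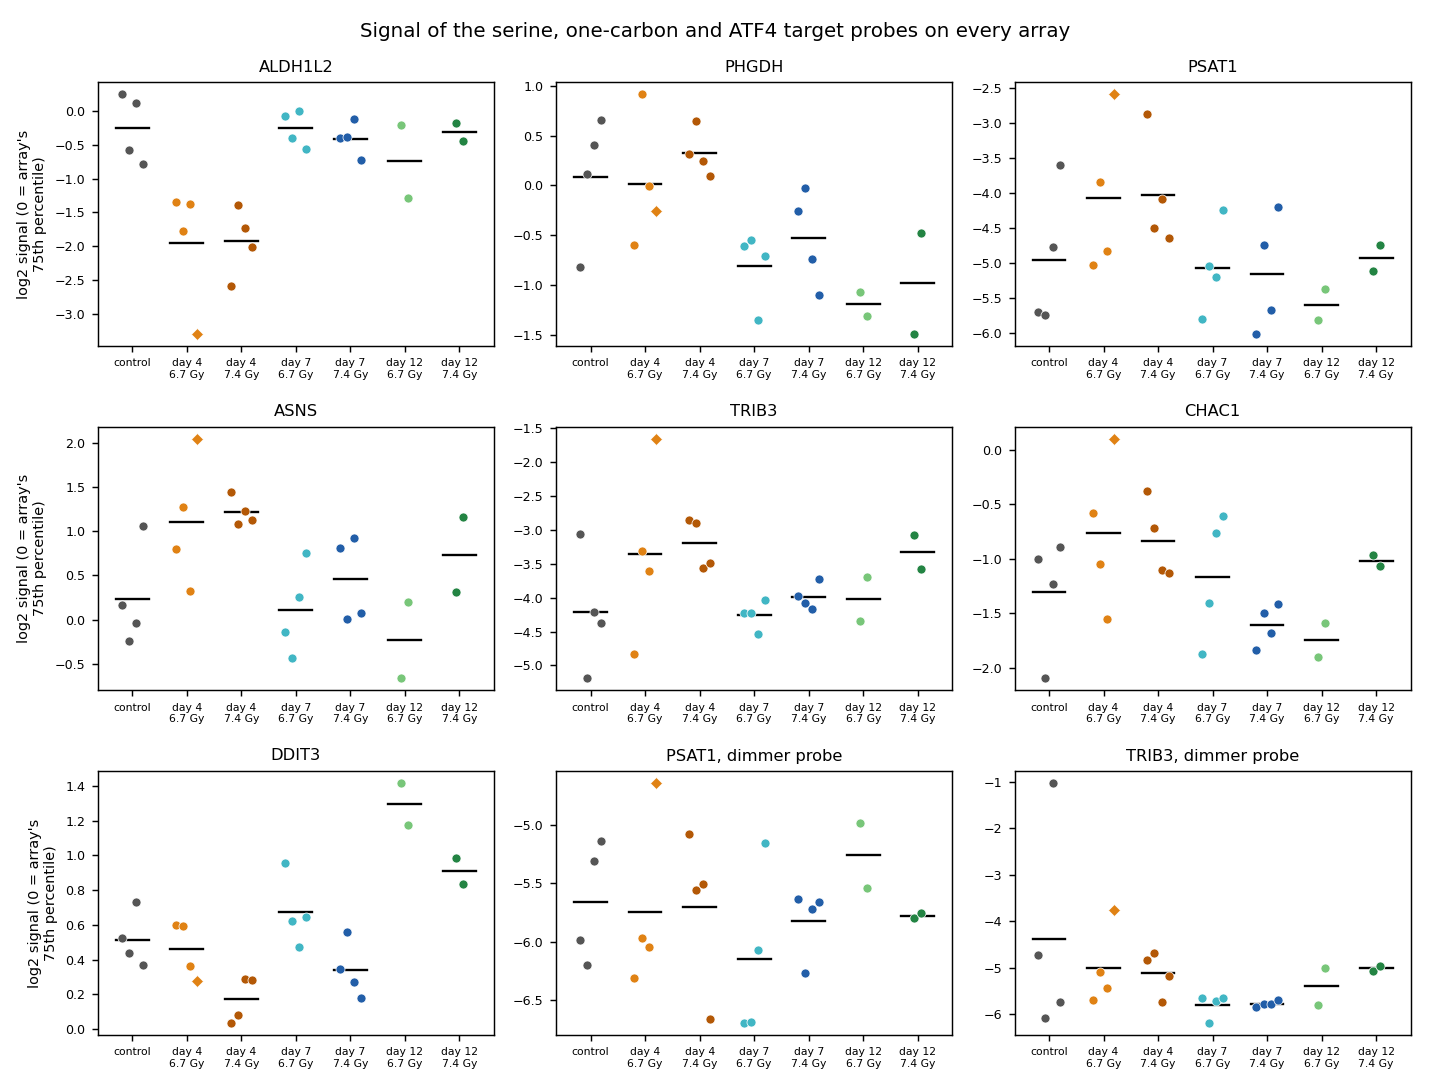
Log2 signal (y axis, 0 is the 75th percentile of the array) of the 7 genes with a probe, brightest probe first, and of the dimmer probes of PSAT1 and TRIB3, by group (x axis). Each point is 1 array, the bar is the group mean, and the diamond is replicate 4 of day 4 after 6.7 Gy, which is lowest for ALDH1L2 at -3.30 and highest for ASNS at 2.04.

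The arrays also differed by place on the slide. All 4 controls were in position 1, while day 4 arrays were in positions 1 and 2. For 6.7 Gy the 2 arrays in position 1 had a mean of -1.57 against -0.25 in the controls of that position, a difference of -1.31. With position as a covariate the log2 changes of ALDH1L2 were -1.31 (SE 0.44) after 6.7 Gy and -0.90 (SE 0.63) after 7.4 Gy. No day 7 or day 12 array shared a position with a control, so that position and group cannot be told apart there. A control and a day 4 array shared a slide on 4 slides, and on each of them the day 4 array was lower: the difference was -1.63 and -2.72 on the 2 slides with 6.7 Gy, and -2.70 and -0.60 on the 2 slides with 7.4 Gy. On each slide the control was in position 1 and the day 4 array in position 2, so the pairs also differ by position. The -2.72 came from replicate 4 after 6.7 Gy, which stood apart, and the -2.70 from replicate 1 after 7.4 Gy. These 2 arrays lay farthest from the median of ALDH1L2.

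None of the other 6 genes was called by limma at any time against the controls. On day 4, 0 of 6 were altered after 6.7 Gy, where 0.978% of all tested probes were called, and 0 of 6 after 7.4 Gy, where 2.33% were called. The median log2 change of the 6 genes was 0.70 and 0.70, against -0.10 and -0.07 over all tested probes, and 4 and 5 of the 6 had a positive difference. The former median was 0.27, with 6 of 6 positive, without replicate 4 of day 4 after 6.7 Gy. On day 7, 0 of 6 genes were altered after either dose, with 0.235% and 0.568% of all probes called. On day 12, 0 of 6 were altered, with 0.108% and 0.0443% called. At a 2-fold limit and an unadjusted limma p below 0.05, 0 and 1 of the 6 genes would pass on day 4, 0 on day 7 and 1, PHGDH, on day 12 after each dose; the one on day 4 was TRIB3 after 7.4 Gy. The test named in the study's methods, without adjustment, gave 0 in these 6 comparisons.

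**Figure D2:**
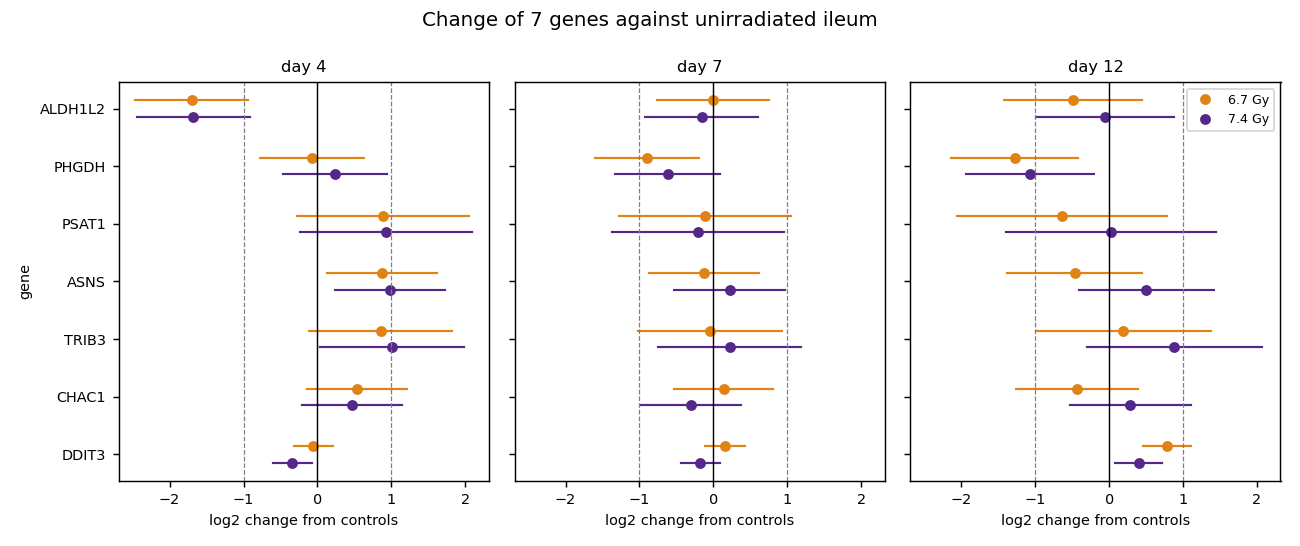
Log2 change from the controls (x axis) of the 7 genes (y axis, brightest probe) on days 4, 7 and 12, with 6.7 Gy in orange and 7.4 Gy in purple. Points are estimates of limma and lines 95% intervals, and dashed lines mark a 2-fold change. The day 4 values of ALDH1L2, which was not tested, are the lowest at -1.70 and -1.68. Its intervals do not allow for its selection on these values. None of the other 6 genes was called altered.

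PHGDH catalyses the first step of serine synthesis from glycolysis, the oxidation of 3-phosphoglycerate. Its log2 signal was -0.82, 0.11, 0.41 and 0.66 in the controls, and on day 4 it lay between -0.60 and 0.92 after 6.7 Gy and between 0.10 and 0.65 after 7.4 Gy, within or close to the control range. The day 4 changes were -0.07 (SE 0.34) and 0.24 (SE 0.34), and their intervals, -0.78 to 0.63 and -0.47 to 0.94, reach no 2-fold change. The first was 0.02 (SE 0.37) without replicate 4 of the 6.7-Gy group. On day 7 the values were -0.61, -0.55, -1.36 and -0.71 after 6.7 Gy and -0.26, -0.03, -0.74 and -1.1 after 7.4 Gy. On day 12 they were -1.07 and -1.31, and -1.49 and -0.48. Of the 4 controls, 3 were above all 12 of these later arrays, and the other one, at -0.82, was inside their range. The log2 change was -0.89 (SE 0.34, limma adjusted p = 0.363) and -0.62 (SE 0.34, limma adjusted p = 0.435) on day 7, and -1.28 (SE 0.41, limma adjusted p = 0.321) and -1.08 (SE 0.41, limma adjusted p = 0.465) on day 12, so that none passed the test. Leaving out 1 array moved the day 12 change to between -1.58 and -1.09 after 6.7 Gy and between -1.58 and -0.57 after 7.4 Gy, where the ends came without its replicate 2 and its replicate 1.

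PSAT1, the aminotransferase of the next step of serine synthesis, was a dim gene on these arrays. Its brighter probe, A_01_P1678971, was at -5.70, -5.75, -4.77 and -3.60 in the controls, at -5.03, -3.84, -4.84 and -2.59 on day 4 after 6.7 Gy, and at -2.88, -4.51, -4.08 and -4.65 after 7.4 Gy. The groups overlapped, and the changes of 0.88 (SE 0.56, limma adjusted p = 0.34) and 0.93 (SE 0.56, limma adjusted p = 0.33) did not pass the test. Without replicate 4 of the 6.7-Gy group the former was 0.39 (SE 0.54). The latter was 0.21 with array position as a covariate and 1.38 without replicate 4 of the controls. The dimmer probe, A_01_P1723752, gave -0.08 (SE 0.39) and -0.04 (SE 0.39). The brighter probe was above background on 22 of the 24 arrays and the dimmer on 17.

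ASNS, which makes asparagine from aspartate and glutamine, had day 4 differences of the opposite sign to those of ALDH1L2. Its log2 signal was 0.17, -0.24, -0.04 and 1.05 in the controls, 0.80, 1.27, 0.32 and 2.04 on day 4 after 6.7 Gy and 1.44, 1.08, 1.23 and 1.13 after 7.4 Gy. All 4 arrays of the 7.4-Gy group were above all controls, the nearest control by little, and the 6.7-Gy group overlapped them. The changes were 0.87 (SE 0.36, limma adjusted p = 0.159) and 0.98 (SE 0.36, limma adjusted p = 0.0986) and were not called. These values turned on 2 arrays: without replicate 4 of the 6.7-Gy group the first was 0.56 (SE 0.35), and without replicate 4 of the controls, the one at 1.05, the second was 1.26 (SE 0.36) and passed the test (limma adjusted p = 0.0433, and up to 0.225 when 1 of the other arrays was left out). On day 7 ASNS was between -0.43 and 0.92 over both doses, with changes of -0.13 (SE 0.36) and 0.22 (SE 0.36), and on day 12 with changes of -0.47 (SE 0.44) and 0.50 (SE 0.44).

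TRIB3, a pseudokinase induced by ATF4 and DDIT3 that dampens ATF4 activity, was read by 2 probes that disagreed. The brighter, A_01_P016355, was at -3.07, -5.19, -4.21 and -4.38 in the controls, at -4.83, -3.32, -3.61 and -1.66 on day 4 after 6.7 Gy and at -2.86, -2.90, -3.56 and -3.48 after 7.4 Gy. The groups overlapped, and the changes of 0.85 (SE 0.46, limma adjusted p = 0.272) and 1.01 (SE 0.46, limma adjusted p = 0.193) were not called. With array position as a covariate they were 0.13 (SE 0.52) and -0.43 (SE 0.74), the second with its sign turned. Without replicate 4 of the 6.7-Gy group the first was 0.29 (SE 0.38). The dimmer probe, A_01_P1716906, gave -0.61 (SE 0.70) and -0.72 (SE 0.70); 1 control stood at -1.03 on it and the other 3 between -6.08 and -4.72.

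CHAC1, which breaks down glutathione in stressed cells, was at -1.0, -2.09, -1.23 and -0.89 in the controls, at -0.58, -1.05, -1.55 and 0.10 on day 4 after 6.7 Gy and at -0.38, -0.72, -1.11 and -1.13 after 7.4 Gy. The day 4 changes of 0.53 (SE 0.32, limma adjusted p = 0.317) and 0.47 (SE 0.32, limma adjusted p = 0.401) were inside the spread of the controls. Without replicate 4 of the 6.7-Gy group the first was 0.25 (SE 0.31). On days 7 and 12 the changes of CHAC1 lay between -0.44 and 0.29.

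DDIT3, which encodes the transcription factor CHOP of the terminal stress response, was the least variable gene of the list, with a control SD of 0.16. Its log2 signal was 0.52, 0.44, 0.73 and 0.37 in the controls, 0.60, 0.59, 0.37 and 0.28 on day 4 after 6.7 Gy and 0.04, 0.08, 0.29 and 0.28 after 7.4 Gy. The 7.4-Gy group lay below all controls on day 4, by 0.34 on average (log2 change -0.34, SE 0.13, limma adjusted p = 0.104, and -0.07, SE 0.21, with array position as a covariate), while the 6.7-Gy group overlapped them (-0.06, SE 0.13, and 0.00 without its replicate 4). On day 12 it was higher than in every control: 1.42 and 1.18 after 6.7 Gy and 0.99 and 0.84 after 7.4 Gy. The change was 0.78 after 6.7 Gy (SE 0.16, 1.72-fold, limma adjusted p = 0.0454), which passes the p limit but not the 2-fold limit, and 0.40 after 7.4 Gy (SE 0.16, limma adjusted p = 0.479). These groups hold 2 animals each, and all day 12 arrays were in position 4.

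No gene of the list passed the test between the doses on the same day. Of the 6 genes, 0 were altered between 7.4 Gy and 6.7 Gy on day 4, on day 7 and on day 12, where 0%, 0% and 0.00277% of all tested probes were called, and 0 passed at an unadjusted p below 0.05 with the 2-fold limit, by limma or by the test of the study's methods. For ALDH1L2, as a description with no test, the 95% interval of the dose difference on day 4 was -0.74 to 0.78. Leaving out replicate 4 of the 6.7-Gy group gave a difference of -0.42 (SE 0.30) with an interval of -1.05 to 0.20, which reaches past a 2-fold change. DDIT3 was lower after 7.4 Gy than after 6.7 Gy on each day, by 0.29, 0.33 and 0.38 on average (log2 differences -0.29, -0.33 and -0.38, the first -0.35 without that array), with limma adjusted p = 0.877, 0.992 and 0.793. Between day 7 and day 4, 0 of the 6 genes were altered by limma after either dose, with 0.354% and 0.942% of all probes called; these comparisons use the same day 4 arrays as those against the controls. At an unadjusted p below 0.05 with the 2-fold limit, 1 gene, ASNS, would pass after 6.7 Gy and 0 after 7.4 Gy. Of the 6 genes, 5 had a negative difference at both doses, all but DDIT3. For ASNS it was -1.0 (SE 0.36, limma adjusted p = 0.15) and -0.77 (SE 0.36, limma adjusted p = 0.252), and the first was -0.69 (SE 0.35) without replicate 4 of day 4 after 6.7 Gy.

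PSAT1 and ASNS ran against ALDH1L2 from array to array, over all arrays and within groups. PSAT1 was read here by its brighter probe alone, which is dim and was above background on 22 of the 24 arrays. No correlation is given for its dimmer probe. Over the 24 arrays Pearson's r with ALDH1L2 was -0.76 for PSAT1, -0.73 for ASNS, -0.61 for TRIB3, -0.56 for CHAC1 and -0.43 for PHGDH, and 0.45 for DDIT3 (Spearman's rho -0.70, -0.68, -0.45, -0.38, -0.53 and 0.49). These are descriptions over arrays that share 7 groups. For the deviations from the group means r was -0.75 for PSAT1, -0.59 for ASNS, -0.46 for TRIB3, -0.445 for CHAC1, -0.08 for PHGDH and 0.49 for DDIT3. Without replicate 4 of day 4 after 6.7 Gy it was -0.67, -0.46, -0.15, -0.245, -0.20 and 0.42. That array is the lowest of the 24 for ALDH1L2 and the highest for PSAT1, ASNS, TRIB3 and CHAC1. Without the 2 arrays farthest from the median of ALDH1L2, r over levels was -0.54 for PSAT1 and -0.58 for ASNS but -0.27 for TRIB3 and -0.23 for CHAC1, so for the last 2 genes the relation rests on those arrays. With VIL1, a brush border gene described next, r was -0.74 for PSAT1 and -0.74 for ASNS over the arrays, and -0.735 and -0.41 within groups.

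**Figure D3:**
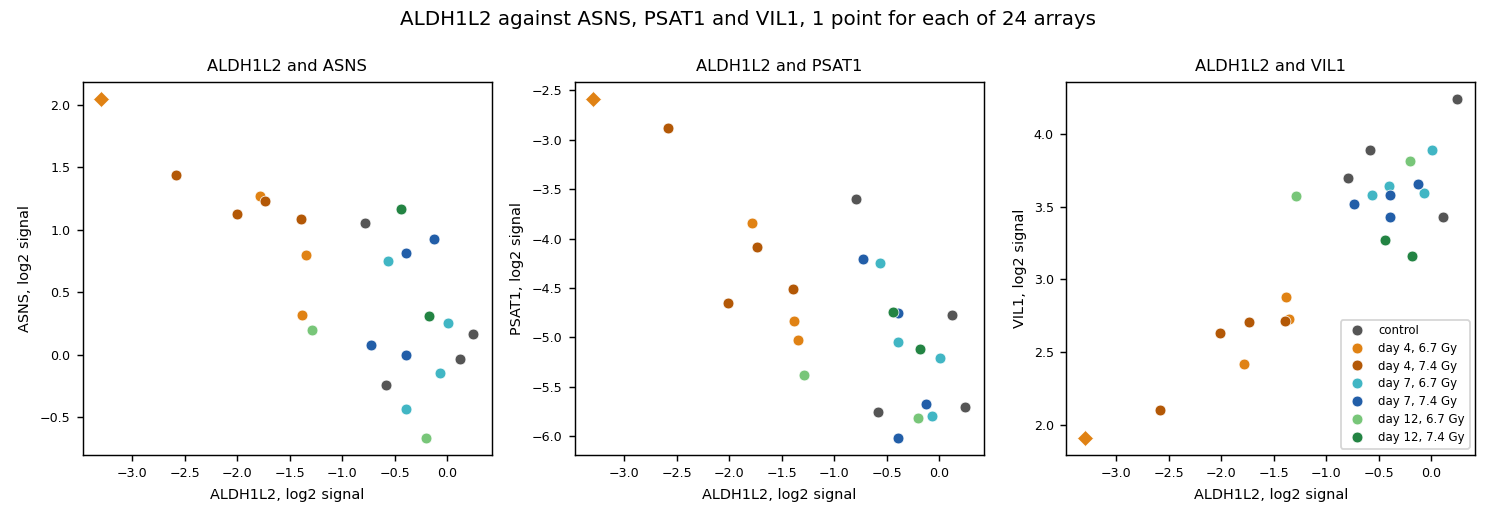
Log2 signal of ASNS, PSAT1 and VIL1 (y axes) against that of ALDH1L2 (x axes), 1 point for each of 24 arrays, coloured by group; the diamond is replicate 4 of day 4 after 6.7 Gy. ASNS and PSAT1 were higher where ALDH1L2 was lower (r = -0.73 and -0.76), and VIL1 was lower (r = 0.90).

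The genes most like ALDH1L2 over the 24 arrays were GNA11 (r = 0.93), DNASE1 (r = 0.93), MYO1A (r = 0.92), NDUFA1 (r = 0.91) and LOC699905 (r = 0.91), and without replicate 4 of day 4 after 6.7 Gy their r lay between 0.87 and 0.91. MYO1A is the brush border myosin of absorptive enterocytes. VIL1, which encodes the brush border protein villin and was looked at after these values were seen, had r = 0.90 with ALDH1L2 over the arrays and 0.73 within groups (0.865 and 0.616 without that array). It was at 3.43 to 4.24 in the controls, at 1.91 to 2.88 on day 4 after 6.7 Gy and at 2.10 to 2.72 after 7.4 Gy, and altered at both doses (log2 change -1.32, SE 0.19, limma adjusted p = 0.00106, and -1.27, SE 0.19, limma adjusted p = 0.000847). The summed level of the 6 enterocyte markers ranged from 466 to 612 in the controls, 150 to 500 on day 4 after 6.7 Gy and 427 to 497 after 7.4 Gy, and on day 7 from 552 to 582 and 399 to 686. Of these markers only VIL1 was lower beyond the test on day 4, and LCT was higher after 7.4 Gy (log2 change 1.94, SE 0.49, limma adjusted p = 0.0241). After 6.7 Gy 2 of the 6 had a positive change, with a median of -0.53, or 3 of 6 and 0.02 without that array. No correlation with ALDH1L2 is given for the other markers of this list. The 4 goblet cell markers summed to 354 to 412 in the controls and to 134 to 326 and 248 to 377 on day 4, with AGR2 and CLCA1 lower at both doses. Without that array, which has the lowest sum, CLCA1 was not called after 6.7 Gy (limma adjusted p = 0.0605). On day 4, 0.978% and 2.33% of all tested probes were called. Markers of other cells of the gut wall also moved on these arrays. The summed level of 7 fibroblast markers was 38.2 to 67.9 in the controls, 60.4 to 97.3 after 6.7 Gy with 0 of 7 called, and 80 to 145 after 7.4 Gy, above all controls, with 3 of 7 called higher. After 7.4 Gy the 5 markers of enteric glia and neurons (2.87 to 3.53 against 1.26 to 2.35, 2 of 5 called higher) and the 3 macrophage markers (50 to 62.2 against 36.9 to 47.1, 1 of 3 called higher) were also above all controls, while after 6.7 Gy both overlapped them with 0 called. The enteroendocrine markers summed to 27.2 to 41.2 in the controls and to 34.1 to 63.5 and 40.8 to 62.3 on day 4. The endothelial markers summed to 1.89 to 3.26, and to 1.66 to 3.7 and 3.08 to 4.55. Both had higher means on day 4 and overlapped the controls. The T cell markers (15.6 to 23.4 in the controls, 11.3 to 16.3 and 14.6 to 17.2 on day 4) and the plasma cell markers (12.9 to 50.6, and 14 to 16.9 and 10.4 to 17.1) had lower means and overlapped the controls, with 0 called. Of the 4 B cell markers, CD79B was called lower at both doses (log2 change -1.29 and -1.25, limma adjusted p = 0.0252 and 0.0163), and so was HBB, a haemoglobin gene, of the 3 red blood cell markers (-6.11 and -5.88, limma adjusted p = 1.18e-05 and 1.69e-05). After 6.7 Gy 2 of the 4 B cell markers had a positive change. Their sum was 0.983 to 2.93 in the controls and 0.797 to 1.6 and 0.658 to 1.07 on day 4. The red blood cell sum was 115 to 155 in the controls and 100 to 119 and 106 to 127 on day 4. Both sums overlapped the controls. The part of a change in cell composition in the ALDH1L2 values was not tested.

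Of the other folate and one-carbon enzymes and carriers, 16 genes were tested, and 2 rose on day 4 at both doses, SHMT1 and TYMS, where 0.978% and 2.33% of all tested probes were called in either direction. SHMT1, the cytosolic counterpart of SHMT2 that passes the carbon of serine to folate, was at -0.32, -0.27, -0.60 and -0.65 in the controls, at 0.88, 0.76, 0.89 and 1.90 on day 4 after 6.7 Gy and at 0.87, 0.80, 1.43 and 0.83 after 7.4 Gy. The groups did not overlap, and the change was 1.57 (SE 0.21, 2.97-fold, limma adjusted p = 0.000438) and 1.44 (SE 0.21, 2.72-fold, limma adjusted p = 0.000696). The first was 1.31 (SE 0.17) and was still called without replicate 4 of the 6.7-Gy group, the array at 1.90. By day 7 SHMT1 was lower again, by 1.16 after 6.7 Gy (log2 change -1.16, limma adjusted p = 0.0172) and by 1.08 after 7.4 Gy (-1.08, limma adjusted p = 0.00958). Without that array the former was -0.89 and fell short of the 2-fold limit (limma adjusted p = 0.0231). A second SHMT1 probe gave day 4 changes of 1.24, which was called, and 0.96, which missed the 2-fold limit (limma adjusted p = 0.0133 and 0.0286), and one more gave -0.56 and -0.19, not called.

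TYMS, the thymidylate synthase that uses methylene-tetrahydrofolate, was at 0.79, 1.37, 1.04 and 1.1 in the controls and between 2.19 and 3.08 on all 8 arrays of day 4. It rose by 1.52 (SE 0.21, 2.87-fold, limma adjusted p = 0.000433) and 1.44 (SE 0.21, 2.72-fold, limma adjusted p = 0.000509), and its 3 other probes gave rises of 1.5 to 1.67 and 1.38 to 1.73. On day 7 TYMS was still higher than in the controls, by 0.95 (limma adjusted p = 0.0405) and 0.96 (limma adjusted p = 0.0238), short of the 2-fold limit. Another of its probes was called on day 7 after 7.4 Gy (log2 change 1.19, limma adjusted p = 0.00299), and the rest were not. Of the 6 proliferation markers, 5 were above the controls in the mean at both doses on day 4 and 0 were called, with a median log2 change of 0.58 after 6.7 Gy (0.25 without replicate 4) and 0.18 after 7.4 Gy. Their summed level was 11.9 to 14.6 in the controls, 10.9 to 35.1 after 6.7 Gy and 12.3 to 19.3 after 7.4 Gy. The summed level of the 4 crypt stem cell markers was 1.65 to 1.84 in the controls and 2.17 to 4.28 and 2.53 to 2.64 on day 4, above all controls on all 8 arrays, with 0 of 4 called. The part of these cells in the TYMS and SHMT1 values was not tested. PIPOX, a peroxisomal oxidase of sarcosine, was lower after 7.4 Gy on day 4 (log2 change -1.26, SE 0.30, limma adjusted p = 0.0171), although its values of -1.19, 0.27, -0.44 and 0.16 overlapped the lowest control at 0.19. Of the remaining genes of mitochondrial folate metabolism, named here after their values were seen since SHMT2 and MTHFD2 have no probe, MTHFD1L had day 4 changes of 0.73 (SE 0.23, limma adjusted p = 0.0852) and 0.47 (SE 0.23, limma adjusted p = 0.225), MTHFD2L of 0.18 and 0.22, and the folate carrier SLC25A32 of 0.00 and 0.14. Leaving out replicate 4 of the 6.7-Gy group changed the first value of each to 0.45 (limma adjusted p = 0.225), 0.22 and -0.22. Among the 12 tested enzymes of glycine, serine and methionine metabolism, 0 were altered at any time against the controls, where 0.0443% to 2.33% of all tested probes were called.

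**Figure D4:**
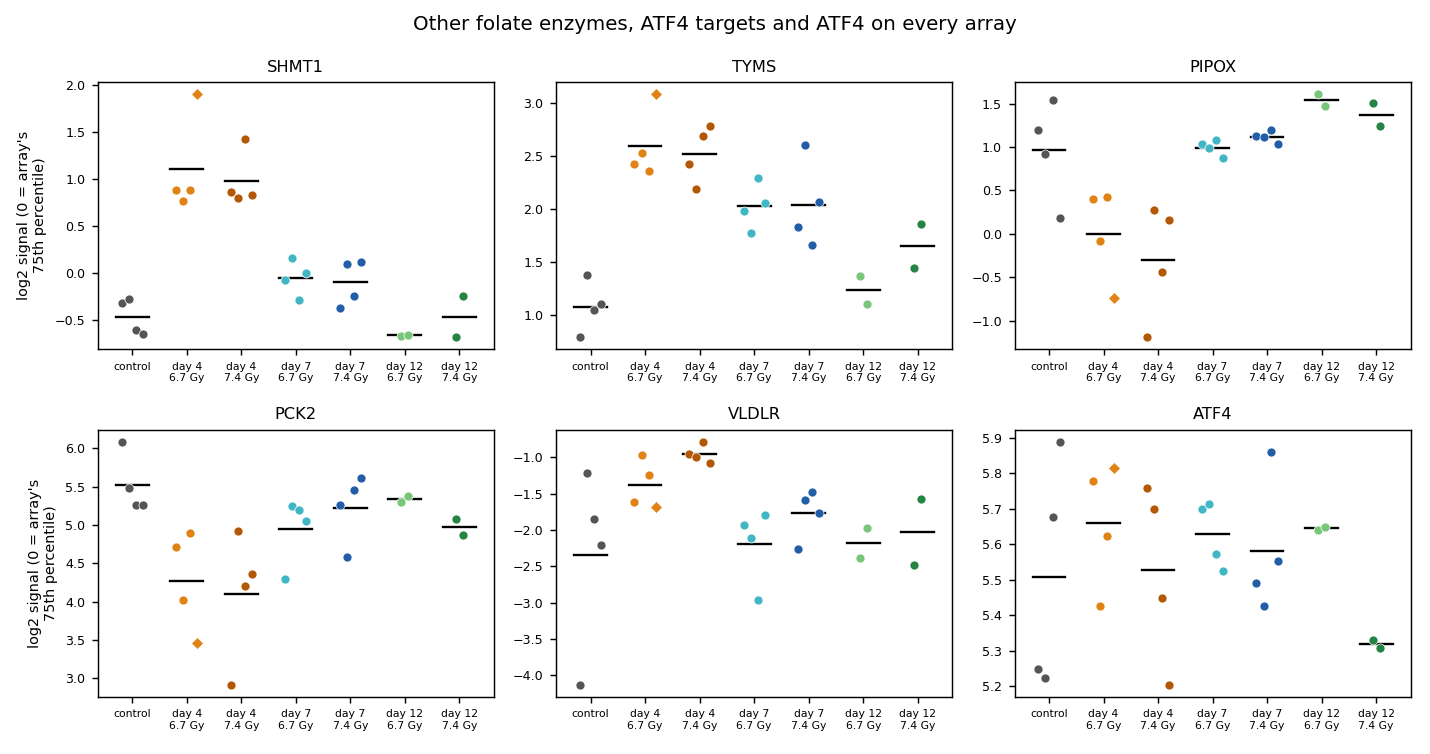
Log2 signal (y axis, 0 is the 75th percentile of the array) of SHMT1, TYMS, PIPOX, PCK2, VLDLR and ATF4, brightest probe, by group (x axis). Each point is 1 array and the bar the group mean; SHMT1 and TYMS were above all controls on all 8 arrays of day 4, and ATF4 overlapped the controls in every group.

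No change in the mRNA level of ATF4 itself was detected. Its brightest probe was at 5.25, 5.22, 5.68 and 5.89 in the controls and gave day 4 changes of 0.15 (SE 0.15, limma adjusted p = 0.555) and 0.02 (SE 0.15, limma adjusted p = 0.958), with 95% intervals of -0.17 to 0.47 and -0.30 to 0.34. Its second probe gave 0.28 and 0.18. Arrays read mRNA, and the translation step at which ATF4 is mainly controlled was not measured. Of the 13 tested genes of the eIF2alpha kinases, ATF4 and its feedback, 0 were altered at either dose on day 4, 7 or 12, where 0.0443% to 2.33% of all tested probes were called.

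Of 18 further ATF4 target genes that were tested, 1 rose on day 4 after 6.7 Gy and 2 rose and 1 fell after 7.4 Gy, where 0.978% and 2.33% of all tested probes were called. GDF15, a stress cytokine that p53 induces as well, was the one that rose at both doses, by 3.83 (SE 0.35, limma adjusted p = 3.4e-06) and 4.23 (SE 0.35, limma adjusted p = 5.11e-07). It was also called on day 7 at both doses (log2 change 1.66 and 1.91, limma adjusted p = 0.0345 and 0.00716). On day 12 it was called after 6.7 Gy (log2 change 2.30, limma adjusted p = 0.0353) and not after 7.4 Gy (log2 change 1.15, limma adjusted p = 0.427). VLDLR, a lipoprotein receptor, rose after 7.4 Gy by 1.40 (SE 0.42, limma adjusted p = 0.0495), where 1 control stood at -4.13 and the others between -2.21 and -1.22; 2 further probes gave 1.34 and 0.00. PCK2, the mitochondrial phosphoenolpyruvate carboxykinase, fell after 7.4 Gy on day 4. It was at 6.08, 5.48, 5.27 and 5.26 in the controls, at 4.72, 4.02, 4.90 and 3.46 on day 4 after 6.7 Gy and at 2.92, 4.92, 4.21 and 4.36 after 7.4 Gy, below all controls at both doses. Its change was called after 7.4 Gy (log2 change -1.42, SE 0.37, limma adjusted p = 0.027), and its other probe gave -1.36 (SE 0.32, limma adjusted p = 0.0171).

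The cytosolic aminoacyl-tRNA synthetases, a group that ATF4 raises together, had 0 of 16 tested genes altered at any time against the controls, where 0.0443% to 2.33% of all probes were called. Their median log2 change on day 4 was 0.43 after 6.7 Gy, with 14 of 16 above 0 (0.19 and 12 of 16 without replicate 4), and 0.29 after 7.4 Gy, with 11 of 16 above 0, against -0.10 and -0.07 over all tested probes. The ER chaperones and other genes of the unfolded protein response had 0 of 17 altered at any time against the controls, where the same 0.0443% to 2.33% of all probes were called. Their medians on day 4 were -0.10 (-0.32 without replicate 4 of the 6.7-Gy group) and -0.32, with 14 and 16 of the 17 below 0, against the same -0.10 and -0.07 over all tested probes. On day 7 they were -0.21 and -0.43, with 12 and 17 of the 17 below 0, against 0.00 and -0.03 over all. Of 7 tested genes of mitochondrial proteostasis, TRAP1, a mitochondrial chaperone, was called after 6.7 Gy on day 4 (log2 change 1.07, SE 0.17, limma adjusted p = 0.00245), where 0.978% of all probes were. After 7.4 Gy it also lay above all controls on all 4 arrays and passed the p limit but not the 2-fold limit (log2 change 0.82, SE 0.17, limma adjusted p = 0.00935), and without replicate 4 the same held after 6.7 Gy (log2 change 0.96, SE 0.175, limma adjusted p = 0.00997). None of the 7 was altered on days 7 and 12.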

How the data were processed

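Scanner intensities of Agilent 1-colour arrays, 1 per animal, were deposited by the authors with a table of normalized log2 values; per the file headers the scans were read with Feature Extraction 11.0.1.1. The authors centred log2 intensities on the 75th percentile of each array and named a t-test with Benjamini-Hochberg adjustment and a 2-fold limit. Here the processed intensities were put on a log2 scale, centred on each array's 75th percentile (837.3 to 1330 intensity units; 0 saturated spots) and averaged over spots of a probe. These values differed from the deposited log2 table by at most 0.00181 for the 9 probes. Probes above background on all arrays of at least 1 group were tested with limma 3.58.1 (R 4.3.3) in 1 fit over 7 groups, with p-values adjusted over 36108 probes; the code was tested on simulated data. ALDH1L2 was given no test and entered no count of altered genes. A gene is represented by its brightest tested probe, and all probes of the 7 genes are given. Groups came from the labels; for the last time point 1 protocol label says 21 days and the other labels day 12, which is used here. The number of arrays limits the precision. Members, gene lists and tests were chosen with earlier results of these data known. Named from the lists were altered genes, ATF4 and the 5 genes most correlated with ALDH1L2 over the arrays (those over the group means are not reported here); others are marked where they appear. Alternatives were normexp (offset 50, on the median signal, as no mean signal was used), quantile normalization, the deposited values, other filters, tests, blocks and probe summaries, and leaving out each array.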

Additional observations from a re-analysis of the deposited data

Results flagged for a closer look

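On the dimmer TRIB3 probe, replicate 2 of day 7 after 6.7 Gy was at -6.18, apart from the other 3 arrays of its group at -5.71 to -5.65. On the dimmer PSAT1 probe, replicate 2 of day 7 after 7.4 Gy was at -6.27, apart from the other 3 at -5.72 to -5.63. These are 2 of 45 sets of 4 arrays looked at, and chance alone gives about 1 in 20.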

How the results depend on the processing

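The count of altered genes among the 6 tested was 0 in all 11 comparisons. It was also 0 under normexp, quantile normalization, the deposited values, both filters, trended and robust moderation, the methods' t-test with and without adjustment, fits of the compared groups alone, slide as a block, array position as a covariate and the mean over probes. With the replicate number as a block it was 0 too; the numbers pair no animals by the labels (median r of same-numbered arrays 0.03), and the block changed no call. Array position could be fitted neither for days 7 or 12 against the controls nor for day 7 against day 4. Without the fold limit the count was 1 on day 12 after 6.7 Gy, from DDIT3, whose adjusted p there ranged from 0.0442 to 0.384 when 1 array was left out. Leaving out 1 array at a time gave 0 to 1 for 7.4 Gy on day 4 (1 without control replicate 4, from ASNS) and 0 in the other 10 comparisons. The log2 change of ALDH1L2 on day 4, a description with no test, kept its sign in every alternative, from -1.90 to -1.25 after 6.7 Gy and from -1.86 to -0.90 after 7.4 Gy, the last with array position as a covariate. Of the other 6 genes after 7.4 Gy on day 4, TRIB3 ranged from -0.43 to 1.39 and DDIT3 from -0.45 to -0.07, TRIB3 at its lowest and DDIT3 at its highest with that covariate, and PHGDH ranged from -0.07 to 0.52, below 0 without control replicate 1; PSAT1 (0.21, with position as a covariate, to 1.38, without control replicate 4), CHAC1 (0.20, without control replicate 2, to 0.61) and ASNS (0.82 to 1.26) kept their sign. After 6.7 Gy on day 4 the sign turned for DDIT3 (-0.19 to 0.08) and PHGDH (-0.38 to 0.13) and held for PSAT1 (0.39 to 1.47), ASNS (0.56 to 1.14), TRIB3 (0.12 to 1.35) and CHAC1 (0.25 to 0.88). The excluded array that stood apart changed no count in the comparisons without its group, an alternative chosen after seeing the data. Dim probes of PSAT1 and TRIB3 lie near background, where small changes cannot be read.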

Other observations

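Over the 24 arrays, the genes whose signal ran most opposite to ALDH1L2 were RBM28 (r = -0.91), CCDC85B (r = -0.90), LOC718202 (r = -0.90), SURF6 (r = -0.90) and CDK2AP1 (r = -0.89), and without replicate 4 of day 4 after 6.7 Gy their r lay between -0.87 and -0.84. RBM28 and SURF6 encode nucleolar proteins of ribosome formation. These are the extremes of all tested genes and are given as a description.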
